A study of Caenorhabditis elegans with 43 samples.

Results

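The genes of the cytosolic ribosomal proteins of C. elegans were examined in whole-worm mRNA of 8 genotypes. They were taken as every gene whose symbol starts with rpl or rps and a number, or with rla and a number, and 81 of the 13837 genes of the normalized table met this rule. Of these, 47 belong to the large subunit, 31 to the small subunit and 3 to the acidic stalk. All 81 were also listed in the unfiltered table of 46739 genes, so that none was lost to the filter on low values.

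The ribosome translates mRNA into protein, and is built from a small subunit that reads the mRNA and a large subunit that joins the amino acids. Each subunit consists of ribosomal RNA and many small proteins, which are imported into the nucleolus and assembled there on the new rRNA before the subunits are exported. Ribosomal protein mRNAs are among the most abundant of a growing cell, their production is tied to nutrient signaling through TOR, and in C. elegans lower production of ribosomal proteins or of initiation factors is known to lengthen life.

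The series compared long-lived worms carrying nuo-6(qm200), which affects a subunit of complex I of the mitochondrial electron transport chain, with mutants of atfs-1, the transcription factor of the mitochondrial unfolded protein response, and of hif-1, the transcription factor of the hypoxia response. Each of the 43 libraries was made from a plate of synchronized, prefertile young adult worms grown on NGM plates with OP50 bacteria at 20 °C, with RNA isolated independently for each. The libraries were sequenced in 3 batches, and each mutant was compared with wild-type N2 of its own batch. Batch 1 held 3 wild-type, 6 atfs-1(et17), 5 atfs-1(et15), 3 hif-1(ia4), 2 nuo-6;hif-1 and 3 atfs-1 deletion (gk3094) libraries, batch 2 held 6 wild-type and 6 nuo-6 libraries, and batch 3 held 3 wild-type, 3 atfs-1 and 3 NA238 libraries. et15 and et17 are gain-of-function alleles that leave ATFS-1 active without mitochondrial stress. The labels give NA238 only as a code. It was read here as nuo-6;atfs-1, and the atfs-1 of batch 3 as the same deletion as in batch 1, although its label names no allele. All worms were whole animals, so that fewer cells of a type and less RNA per cell cannot be told apart.

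Reads on genes ranged from 21466920 to 48493377 per library, and the least read member still had 32 to 171 reads in each library. hif-1 mRNA was 18.5 to 32.3 normalized CPM (reads of a gene scaled to a common library size) in hif-1 and 35.0 and 43.4 in nuo-6;hif-1 worms, against 191 to 220 in wild-type worms of batch 1. atfs-1 mRNA was 24.7 to 26.5 normalized CPM in the deletion of batch 1, 24.5 to 30.3 in atfs-1 of batch 3 and 25.6 to 29.2 in NA238, against 55.9 to 79.9 in wild-type worms of those batches. nuo-6 mRNA was 122 to 214 normalized CPM in nuo-6 and 114 to 141 in wild-type worms of batch 2. It was 132 to 173 in NA238 against 139 to 170 in batch 3, and 109 and 157 in nuo-6;hif-1 against 118 to 131 in batch 1. The log2 fold changes were 0.48 in nuo-6, -0.04 in NA238 and 0.08 in nuo-6;hif-1. Its level does not check the qm200 allele, and the nuo-6 part of the reading of NA238 was not checked. The 3 most alike of all 903 pairs of libraries each joined 1 atfs-1 deletion library of batch 1 with 1 atfs-1 library of batch 3, with an SD of the log2 difference over 8521 genes of 0.0930, 0.0936 and 0.104, whereas the next pair was at 0.154. Their counts differed by more than sampling noise (chi-square per degree of freedom 8.14 to 53.8), the labels say nothing of a shared source, and all 6 were kept as separate samples. The atfs-1 comparisons of batches 1 and 3 are therefore not treated as independent of each other. Library nuo-6 3 had the lowest share of reads on the members in its group, and wild-type 7 had a summed level of 17 molting genes of 5149 normalized CPM against at most 1937 in the other wild-type worms of batch 2. The number of members called in nuo-6 is given without each of these libraries, and so are the values of some named members.

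In wild-type worms most of the family was expressed at a like level. Over the 12 wild-type libraries, the median member was at 1165 normalized CPM, and 75 of the 81 members, including all 31 of the small subunit, had a mean of at least 500. The highest means were 3783 ± 385 normalized CPM for rpl-3 (SD, n = 12), 3075 ± 295 for rla-0, the P0 protein at the base of the stalk, and 3031 for rpl-4, 2345 for rpl-7 and 2250 for rps-0. These genes are also among the longer ones. Per kilobase of annotated exon, the median member was at 2257 normalized CPM, and rpl-41.2 was highest at 5184, ahead of every member of the small subunit, the highest of which was rps-25 at 3529. Of the stalk proteins that bind the translation factors, rla-1 (P1) was at 1049 normalized CPM and rla-2 (P2) at 466. The spread between wild-type libraries was small, with a median coefficient of variation of 12.2%.

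A few members were expressed far below the rest. rpl-42 had a mean of 3.61 and rpl-37 of 3.77 normalized CPM, followed by rpl-24.2 at 66.5, rpl-41.1 at 70.5 and rpl-25.1 at 265. The level of rpl-37 depended on the batch, at 3.92 to 4.61 normalized CPM in wild-type worms of batch 1, 1.82 to 2.43 in batch 2 and 5.75 to 7.63 in batch 3, with no overlap between batches. A gene outside the rule, W01D2.1, which the annotation also names ribosomal protein L37, was at 716 ± 97.8 normalized CPM (SD, n = 12). rpl-24.2 is annotated as the ribosome biogenesis protein RLP24, not as a component of the mature ribosome, and lies on chromosome I at 9669415 to 9670098 (build WBcel235). rpl-41.1 and rpl-41.2 lie next to each other at 4789190 to 4789592 and 4790292 to 4790642 of chromosome I, each with 66 annotated coding bases. Their counts are of uniquely mapped reads, and a read that fits both copies would be lost to both.

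**Figure D1:**
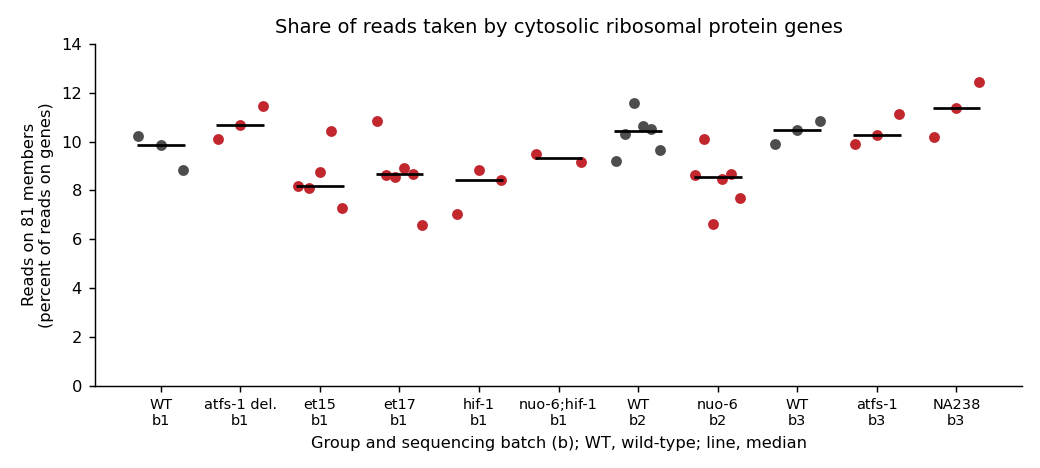
Percent of all reads on genes that fell on the 81 cytosolic ribosomal protein genes, by group and batch, with 1 point per library and a line at the group median. Wild-type libraries (grey) lie between 8.82% and 11.6%, and the mutants (red) between 6.57% in an atfs-1(et17) library and 12.4% in an NA238 library.

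Together the members took 6.57% to 12.4% of the reads on genes in each library. Among wild-type worms the share was 8.82%, 9.84% and 10.2% in batch 1, from 9.21% to 11.6% with a median of 10.4% in batch 2, and 9.91%, 10.5% and 10.8% in batch 3. In nuo-6 worms it ranged from 6.62% to 10.1% with a median of 8.56%, and the range overlapped that of wild-type worms. The atfs-1(et15) libraries lay at 7.30% to 10.4% and the atfs-1(et17) libraries at 6.57% to 10.9%, with medians of 8.19% and 8.65%. hif-1 was at 7.05%, 8.44% and 8.84%, with only its highest library inside the range of batch 1. The atfs-1 deletion (10.1%, 10.7% and 11.5%), atfs-1 of batch 3 (9.90%, 10.3% and 11.1%), nuo-6;hif-1 (9.16% and 9.49%) and NA238 (10.2%, 11.4% and 12.4%) all overlapped wild-type worms of their batch. The proportions of the family itself were steady. Large subunit genes made up 53.7% to 57.4% of the members' summed level in every library, and NA238 was lowest at 53.7%, 53.8% and 53.9%.

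In nuo-6 worms 21 of the 81 members were called lower, by modest amounts. The log2 fold change against wild-type worms of batch 2 was negative for 80 of 81 members, with a median of -0.24, or 15.3% lower, beside a median of -0.03 over all genes. By the moderated test of limma, at a Benjamini-Hochberg adjusted p under 0.05 over all 13837 genes, these 21 members were lower and none was higher. In the same comparison 40.3% of all genes were called, 18% lower and 22.4% higher, and the lower members are 25.9% of the 81. The lower calls comprised 15 of 47 large subunit genes, 6 of 31 small subunit genes and none of the 3 stalk genes. Only 6 members, all lower, had no overlap between the 2 groups, beside 6.09% of all genes with every nuo-6 library below every wild-type library. The count of lower members was 13 without wild-type 5, 7 without wild-type 6, 10 without wild-type 7 (with 1 member, rpl-25.1, then called higher), 11 without nuo-6 3 and 9 without nuo-6 6. With library size as the only scaling 55 members were lower and none higher. The median over all genes was then -0.11 and that of the members -0.32. The distance between these medians was -0.22, beside -0.21 in the normalized table. Shares of all genes called are not given for these fits, nor for later fits with a library left out or another scaling. Such counts therefore do not set the members apart from other genes.

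The clearest member in nuo-6 worms was rpl-25.2, whose product is a large subunit protein. It was at 567 to 680 normalized CPM with a median of 636 in the 6 nuo-6 libraries and at 784 to 954 with a median of 851 in the 6 wild-type libraries. The ranges did not overlap, and rpl-25.2 fell by 0.43 ± 0.10 on the log2 scale (SE, limma adjusted p = 0.0011). rpl-24.2 was at 36.8 to 63.1 normalized CPM, with a median of 42.3, against 54.6 to 66.6, with a median of 60.0. All nuo-6 libraries but nuo-6 2 were below all wild-type libraries, and the gene fell by 0.46 ± 0.11 (adjusted p = 0.00088). rpl-42 fell by 0.56 ± 0.17 (adjusted p = 0.0084), from a median of 3.68 normalized CPM (1.36 to 5.23) to 2.08 (1.35 to 2.86), with overlapping ranges and few reads. The other lower calls lay between -0.24 for rpl-36.A and -0.42 for rpl-11.1, and included rpl-3, which lines the center where peptide bonds are made (-0.27, adjusted p = 0.025), and rpl-34, rpl-28, rps-18, rps-24 and rps-27, in each of which the ranges did not overlap. Without nuo-6 3, rpl-11.1 was at -0.30 (limma adjusted p = 0.053) and was no longer called. rpl-25.2, rpl-24.2 and rpl-42 stayed called without nuo-6 3 and without wild-type 7. For the other lower members named here, the calls without these libraries are not given.

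**Figure D2:**
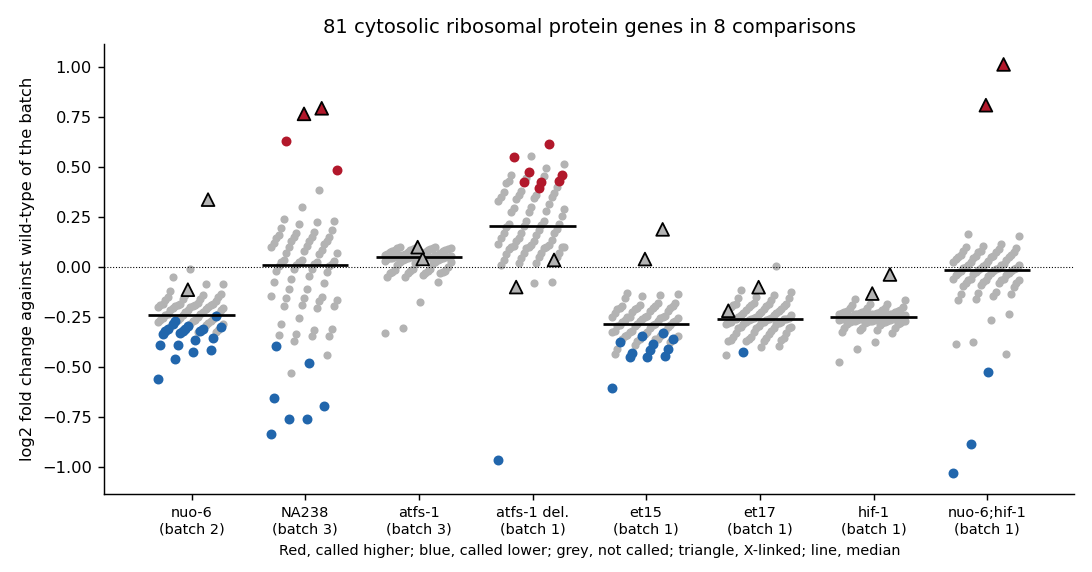
The log2 fold change of each of the 81 members against wild-type worms of the same batch, in 8 comparisons, with called members in red (higher) or blue (lower), the X-linked members as triangles and a line at the median. The cloud sits below 0 in nuo-6, et15, et17 and hif-1, with medians of -0.24, -0.29, -0.26 and -0.25, around 0 in NA238 and nuo-6;hif-1, and above 0 in the atfs-1 deletion of batch 1.

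In both gain-of-function mutants and in hif-1 most fold changes were negative too, with fewer members past the test than in nuo-6. Whether their sizes differ from that in nuo-6 was not tested. In atfs-1(et15) worms 79 of 81 members had a negative fold change with a median of -0.29 (18.1% lower), and 12 were called lower and none higher, where 33.3% of all genes were called, 16.9% higher and 16.4% lower. Among et17 worms 80 of 81 members were negative with a median of -0.26, and 1 was called lower, where 4.09% of all genes were called, 2.85% higher and 1.24% lower. In hif-1 all 81 were negative, from -0.48 to -0.04 with a median of -0.25, and no member was called by limma (1 at an unadjusted p under 0.05), by edgeR (0) or by DESeq2 (3), where 0.52% of all genes were called. In 64 of the 81 members every hif-1 library was below every wild-type library, beside 4.29% of all genes. The members of a library share its preparation and scaling. These 64 members and the 81 negative fold changes are thus not separate observations, and rest on 3 libraries against 3. The same holds for the counts of negative or positive fold changes in the other comparisons. The comparisons of et15, et17, hif-1, the atfs-1 deletion and nuo-6;hif-1 share the 3 wild-type libraries of batch 1. The median over all genes was -0.04 in et15, -0.02 in et17 and -0.01 in hif-1. The summed level of 6 yolk genes was 1674 to 14384 normalized CPM in et15 and 27022 to 76683 in wild-type worms of batch 1. That of 17 molting genes was 1475 to 4649 against 256 to 1006, so that neither overlapped. In et17 and in hif-1 both sums overlapped wild-type worms. The part of developmental stage in the et15 result was not tested.

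Of the members called in the gain-of-function mutants, rpl-11.1, whose product binds the 5S rRNA, changed most in et15. It was at 578, 596, 619, 860 and 884 normalized CPM in et15 and at 933, 1120 and 1138 in wild-type worms, without overlap, and fell by 0.61 ± 0.17 (adjusted p = 0.0052). rpl-25.2 was at 496, 554, 558, 725 and 816 normalized CPM in et15 and 777, 871 and 897 in wild-type worms. Only the highest et15 library reached the wild-type range, and the gene fell by 0.45 ± 0.13 (adjusted p = 0.0076). rpl-7A, a large subunit gene, was at 923, 1020, 1115, 1414 and 1453 normalized CPM in et15 and at 1484, 1550 and 1774 in wild-type worms. These ranges did not overlap, and it fell by 0.45 ± 0.16 (adjusted p = 0.027), a call that was lost without any one of wild-type 1, wild-type 3, et15 2, et15 3 and et15 6 (adjusted p from 0.053 to 0.14). In et17, rpl-25.2 was the member called, at 481 to 771 normalized CPM with a median of 648, wholly below wild-type worms, and it fell by 0.43 ± 0.13 (adjusted p = 0.043). No member differed between et15 and et17 by limma, edgeR or DESeq2 (1 at an unadjusted p under 0.05 by each), where 11.4% of all genes did.

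The number of members called in the gain-of-function mutants turned on single libraries. In et15 it was 2 without wild-type 1, without wild-type 3, without et15 2 or without et15 6, 4 without et15 3, 20 without et15 4 and 38 without et15 5. In et17 it was 12 without et17 1 and 0 without any one of wild-type 1, wild-type 3, et17 2, et17 3 and et17 6. The shares of all genes called in these fits are not given, so the counts do not set the members apart from other genes. The all-gene median moved by 0.11 on the log2 scale in both when library size was the only scaling, and the distance of the members' median from it stayed at -0.24 (et15 -0.25 and et17 -0.24 in the normalized table).

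In NA238 worms the family as a whole lay around wild-type worms. Against wild-type worms of batch 3, 43 members had a positive and 38 a negative log2 fold change, with a median of 0.01 beside -0.04 over all genes. Of the members 4 were called higher and 7 lower, where 17.2% of all genes were called, 11.1% higher and 6.03% lower. None of the 31 small subunit genes was among them. In 43 members the 2 groups did not overlap, beside 46.4% of all genes. With library size as the only scaling 5 members were higher and 4 lower, and the all-gene median shifted by 0.12. The count of 11 became 4 without NA238 r, 6 without wild-type bl, wild-type r or NA238 bl, and 7 without NA238 b. The shares of all genes called in these fits are not given.

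rla-1, the P1 protein of the stalk, was at 1798, 1841 and 1872 normalized CPM in NA238 and at 1078, 1230 and 1260 in wild-type worms of batch 3. The groups did not overlap, and rla-1 was 0.63 ± 0.19 higher on the log2 scale (adjusted p = 0.019). It was not called without wild-type r (0.56, adjusted p = 0.075), NA238 bl (0.65, adjusted p = 0.051) or NA238 r (0.62, adjusted p = 0.058). Its partners did not follow, with rla-0 at 0.22 (adjusted p = 0.40) and rla-2 at -0.06 (adjusted p = 0.86). rpl-7 was at 1379, 1434 and 1589 normalized CPM in NA238 and at 2410, 2466 and 2582 in wild-type worms. There was no overlap, and rpl-7 fell by 0.76 ± 0.15 (adjusted p = 0.00036). The annotation places F53G12.9 over rpl-7 on the same strand and arl-13 over rla-1 on the other strand, and reads of overlapping genes could not be separated further here. rpl-41.1 was at 48, 52.1 and 62 normalized CPM against 89.1, 92.0 and 109, again without overlap, and fell by 0.84 ± 0.20 (adjusted p = 0.0037), while its neighbor rpl-41.2 was at -0.34 (adjusted p = 0.28). rpl-17 (-0.65, adjusted p = 0.0068), rpl-12 (-0.48, adjusted p = 0.042), rpl-3 (-0.40, adjusted p = 0.044) and the thinly read rpl-42 (-0.76, adjusted p = 0.025) and rpl-37 (-0.69, adjusted p = 0.019) were also called lower, and rpl-13 (0.48, adjusted p = 0.038), rpl-11.2 (0.77, adjusted p = 0.010) and rpl-25.1 (0.79, adjusted p = 0.012) higher. The call of rpl-42 was lost without wild-type bl, wild-type r, NA238 b or NA238 r, that of rpl-25.1 without NA238 bl and that of rpl-11.2 without NA238 r.

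Several of the members called in NA238 lie at the left end of chromosome I, where many other genes were also called. Of the 11 members in the first 5 Mb of that chromosome, 2 were called higher and 3 lower, and of the 70 members elsewhere 2 were higher and 4 lower. In the order from the left end, rpl-7 was at -0.76, rpl-17 at -0.65, rpl-27 at 0.39, rla-1 at 0.63, rpl-1 at -0.35 and rpl-13 at 0.48, and the SD of the log2 fold changes was 0.53 over these 11 members and 0.26 over the other 70. Among all 112 genes tested in the first Mb, which holds rpl-7, the median log2 fold change was -0.68, 51.8% were called lower and 1.79% higher. In the next 3 Mb the medians were 0.22, 0.21 and 0.10, with 25.2%, 27.6% and 20.4% called higher. In the 98 other windows of 1 Mb with at least 20 genes, the medians lay between -0.24 and 0.30, at most 12.1% were called lower and at most 27.7% higher, so that the first Mb lay outside these ranges and the next 3 Mb within them. Of these 98, the window from 4 to 5 Mb of chromosome I, which holds rpl-41.1 (-0.84), had a median of -0.09. There 8.98% were called higher and 4.79% lower. The limit of 5 Mb was set after the data were seen. Against atfs-1 worms of batch 3 the first Mb again had a median of -0.72 with 53.6% lower, and in nuo-6 against wild-type worms of batch 2 it had a median of -0.13 with 20.5% lower. What underlies the pattern was not tested.

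**Figure D3:**
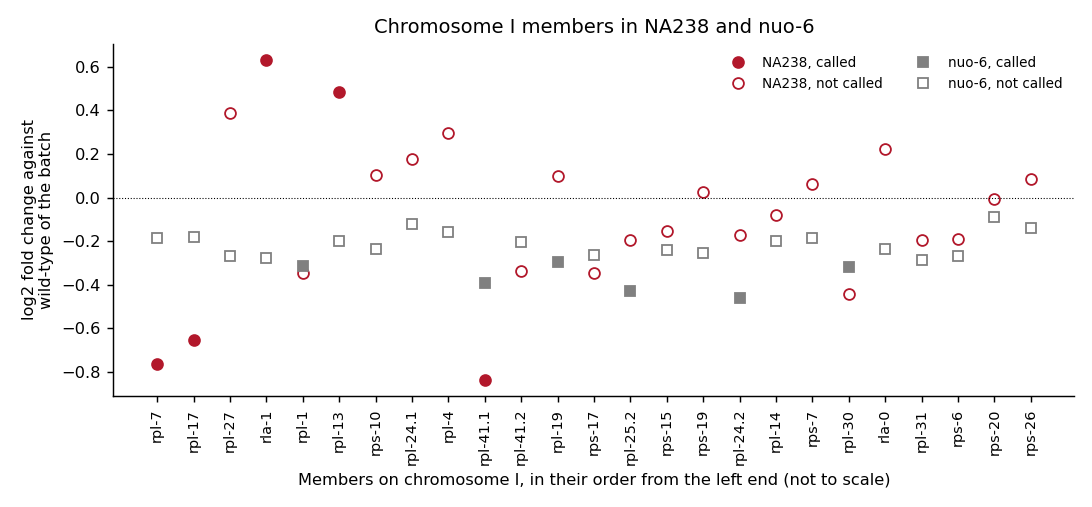
The log2 fold change of the 25 members on chromosome I in NA238 (circles, against wild-type worms of batch 3) and in nuo-6 (squares, against wild-type worms of batch 2), ordered from the left end and not to scale, with filled symbols for called members. In NA238 the first 11 members swing between -0.84 and 0.63, whereas in nuo-6 they lie between -0.39 and -0.12.

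The NA238 and nuo-6 fold changes, each against wild-type worms of its own batch, were compared by their difference. This difference includes any effect of losing atfs-1 itself, so whether the nuo-6 change depends on atfs-1 was not tested. This difference was positive for 65 of 81 members with a median of 0.24, beside -0.02 over all genes, and 3 members were called higher and 1 lower, where 9.56% of all genes were called, 3.98% higher and 5.58% lower. The members were rla-1 at 0.91 ± 0.23 (adjusted p = 0.010), rpl-11.2 at 0.88 ± 0.26 (adjusted p = 0.026), rpl-13 at 0.68 ± 0.20 (adjusted p = 0.026) and rpl-7 at -0.58 ± 0.18 (adjusted p = 0.039). rla-1, rpl-13 and rpl-7 lie in the first 4 Mb of chromosome I and rpl-11.2 on the X chromosome. The number called depended on the scaling. With library size alone the all-gene median shifted by 0.20 and 24 members were called, all higher, and without NA238 bl 1 was called, and without any of the other NA238 and batch 3 wild-type libraries 2. nuo-6 and NA238 were sequenced in different batches, and a batch effect that differs between mutant and wild-type libraries cannot be told apart from the difference.

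In atfs-1 worms of batch 3 no member was called by limma, edgeR or DESeq2 (0 at an unadjusted p under 0.05 by each), where 0.188% of all genes were called, and the median was 0.05 beside 0.04 over all genes. Against these worms, NA238 had 3 members higher and 5 lower, where 14.3% of all genes were called, 8.07% higher and 6.22% lower. The 8 members were all among the 11 called against wild-type worms, and both comparisons use the same NA238 libraries. The largest were rpl-7 (-0.80 ± 0.15, adjusted p = 0.00026), rpl-17 (-0.74 ± 0.17, adjusted p = 0.0029) and rpl-11.2 (0.73 ± 0.21, adjusted p = 0.018). The count was 2 to 5 when any of the 6 libraries was left out. With library size as the only scaling 5 members were higher and 2 lower, and the all-gene median shifted by 0.16.

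The atfs-1 deletion of batch 1 gave another picture than atfs-1 of batch 3. Here 77 of 81 members were positive with a median of 0.20 (15.1% higher), beside 0.09 over all genes, and 8 were called higher and 1 lower, where 31.8% of all genes were called, 18% higher and 13.8% lower. The summed level of 6 body wall muscle genes was 2938 to 6377 normalized CPM in the deletion, 10716 to 12160 in wild-type worms of batch 1 and 2504 to 4941 in those of batch 3, so that the deletion libraries overlapped wild-type worms of batch 3 and not those of their own batch, and its part in the result was not tested. rpl-41.2 was at 1634, 1918 and 2005 normalized CPM in the deletion and at 1169, 1178 and 1268 in wild-type worms of batch 1. It was 0.62 ± 0.21 higher (adjusted p = 0.026), as were rpl-39 (0.55, adjusted p = 0.027), rpl-29 (0.47, adjusted p = 0.034), rps-17, rpl-36.A, rpl-24.2, rps-25 and rps-24. In each of these 8 every deletion library was above every wild-type library, as in 32.6% of all genes. rpl-42 was at 1.97, 2.08 and 2.1 normalized CPM against 3.42, 4.99 and 5.23, and fell by 0.97 ± 0.24 (adjusted p = 0.0040). These calls depended on the scaling, with 1 member higher and 1 lower with library size alone, and none higher and 1 lower in edgeR, where the all-gene median shifted by -0.12. The count was 1 without wild-type 2, deletion 2 or deletion 3 and 5 without wild-type 1 or wild-type 3. The shares of all genes called in these fits are not given. Without wild-type 2, deletion 2 or deletion 3, none of rpl-41.2, rpl-39 and rpl-29 was called, and rpl-29 was not called without wild-type 1 either.

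The rises in the deletion went with gene length. Over the 81 members the log2 fold change and the log2 of annotated exon bases had r = -0.53 (rho = -0.63), and the 27 shortest members (up to 475 bases) had a median of 0.37 against 0.09 in the 27 longest (from 665 bases). In atfs-1 of batch 3 the relation had the opposite sign (r = 0.43, rho = 0.55), and in the other comparisons with wild-type worms r lay between -0.26 and 0.29. Wild-type worms of batch 3 differed from those of batch 1 in the same way, with r = -0.65 across members for their mean log2 difference and a median of 0.31 in the shortest and -0.08 in the longest. rpl-29, for example, was at 455, 491 and 491 normalized CPM in wild-type worms of batch 1, 608, 693 and 698 in the deletion, 631, 786 and 829 in atfs-1 of batch 3 and 714, 743 and 859 in wild-type worms of batch 3. For rpl-29 the deletion libraries lay above wild-type worms of their own batch and below those of batch 3. Over all members, the deletion of batch 1 was above wild-type worms of batch 3 in 65 of 81, with a median of 0.12. Relative to wild-type worms of batch 3 the shortest members of the deletion of batch 1 had a median of 0.00. Genes of 1 library share its preparation, so these relations are descriptions across genes, and the part that library preparation has in the deletion result was not tested. The difference between the 2 atfs-1 comparisons had a median of -0.15 over the members, and no member was called by limma (7 at an unadjusted p under 0.05), edgeR (4) or DESeq2 (11), where 1.19% of all genes were called.

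**Figure D4:**
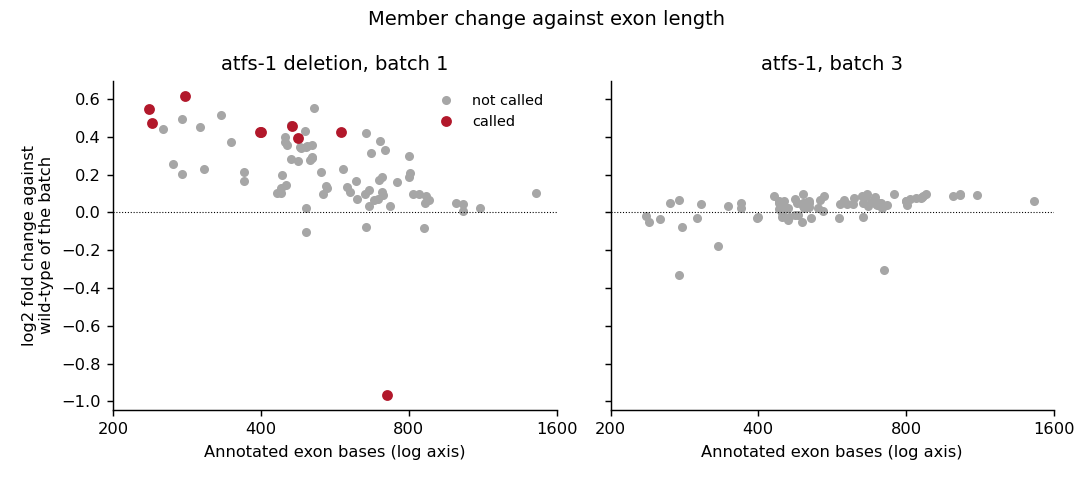
The log2 fold change of each member against wild-type worms of the same batch (vertical axis), by annotated exon bases on a log axis, for the atfs-1 deletion of batch 1 (left) and atfs-1 of batch 3 (right), with called members in red. On the left the shortest members are highest (median 0.37 in the 27 shortest, 0.09 in the 27 longest), and on the right the medians are 0.00 and 0.06.

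In nuo-6;hif-1 worms the family as a whole was level with wild-type worms of batch 1. A positive fold change was found for 33 members and a negative one for 48, with a median of -0.02 beside 0.04 over all genes, and 2 members were called higher and 3 lower, although 56% of all genes were called, 29.8% higher and 26.2% lower. Against hif-1 worms 74 members were positive with a median of 0.24, beside 0.06 over all genes. Of the members 2 were called higher and 1 lower, where 51.9% of all genes were called, 28% higher and 23.9% lower. The difference of the nuo-6;hif-1 and nuo-6 fold changes was positive for 76 members with a median of 0.22 beside -0.03 over all genes, and 1 member, rpl-11.2, was called (0.92 ± 0.28, adjusted p = 0.012), where 29.5% of all genes were, 16% higher and 13.5% lower. That count was 0 without nuo-6;hif-1 2, 2 without wild-type 4 and 3 without nuo-6 3. With 2 nuo-6;hif-1 libraries, of which 1 more had been left out by the study after principal component analysis, these values rest on few samples. The difference includes any effect of losing hif-1 itself (members' median -0.25 in hif-1). Whether the nuo-6 change depends on hif-1 was therefore not tested. The 2 mutants were sequenced in different batches, and a batch effect that differs between mutant and wild-type libraries cannot be told apart from the difference.

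Except for rpl-42 (-1.03, adjusted p = 0.0019), the members called in nuo-6;hif-1 belong to paralog pairs of large subunit genes, with 1 gene on an autosome and 1 on the X chromosome. rpl-11.1 (chromosome V, 3585312 to 3586064) was at 517 and 633 normalized CPM in nuo-6;hif-1 and 933, 1120 and 1138 in wild-type worms, and fell by 0.89 ± 0.21 (adjusted p = 0.00068). Its X-linked partner rpl-11.2 (X, 2241738 to 2242618) was at 951 and 1104 against 541, 602 and 614, and was 0.81 ± 0.24 higher (adjusted p = 0.0047, and 0.70 with adjusted p = 0.0595 without nuo-6;hif-1 2). In both the groups were apart, in opposite directions.

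The second pair showed the same. rpl-25.2 (chromosome I, 8329062 to 8329647) was at 531 and 651 normalized CPM in nuo-6;hif-1 against 777 to 897 in wild-type worms, and fell by 0.53 ± 0.16 (adjusted p = 0.0068). Without nuo-6;hif-1 3 it was at -0.38 (adjusted p = 0.12). rpl-25.1 (X, 4715178 to 4715796) was at 448 and 535 against 221, 245 and 263, and was 1.01 ± 0.25 higher (adjusted p = 0.0012). The share of the X-linked gene in the sum of its pair was therefore 45.1% and 45.8% in nuo-6;hif-1, against 20.2%, 22.7% and 24% in wild-type worms, whereas the sum itself was 979 and 1186 against 1022, 1092 and 1161 normalized CPM. Likewise, rpl-11.1 made up 35.2% and 36.5% of its pair in nuo-6;hif-1 and 60.8%, 64.9% and 67.4% in wild-type worms. Each share is a ratio within a library and does not change with the scaling.

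**Figure D5:**
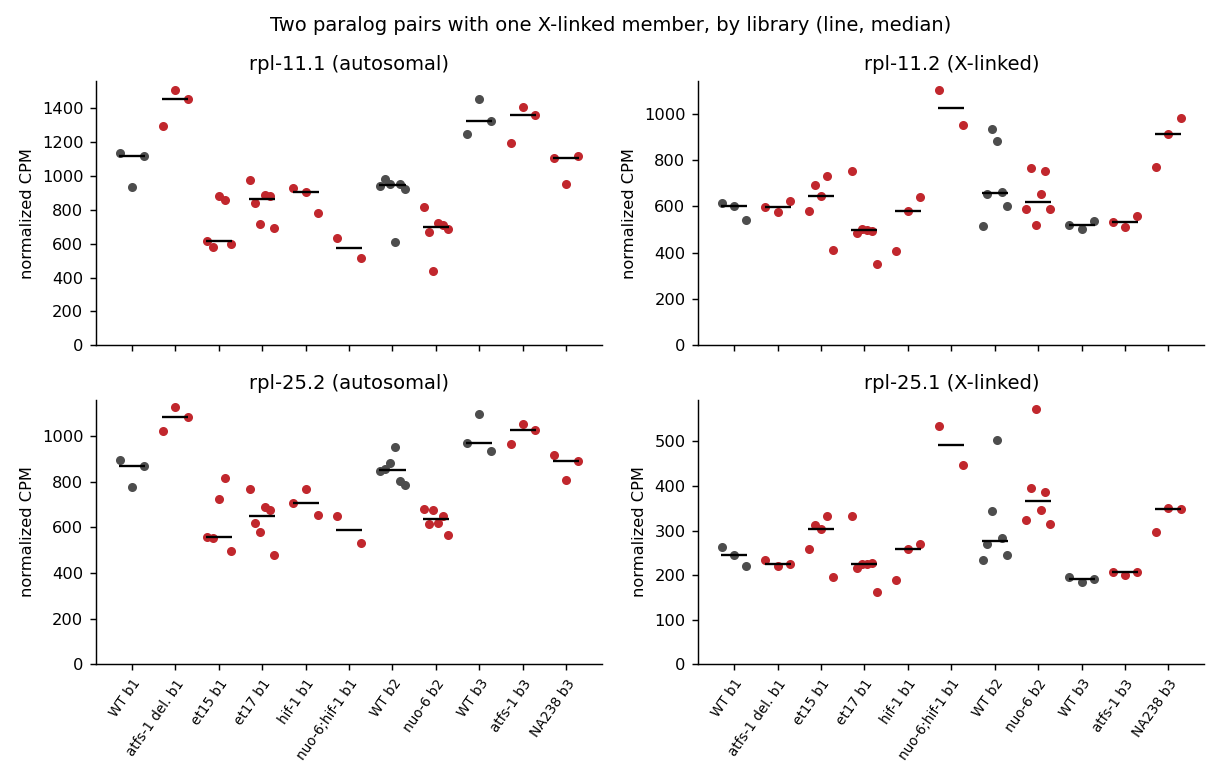
Normalized CPM of the autosomal (left) and X-linked (right) gene of 2 paralog pairs, by group and batch (b), with 1 point per library, a line at the group median and wild-type worms in grey. In nuo-6;hif-1 the autosomal genes are below and the X-linked genes above all wild-type libraries of batch 1, and in NA238 rpl-11.2 (770 to 984) and rpl-25.1 (296 to 351) are above wild-type worms of batch 3.

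NA238 and nuo-6 worms had the same turn in part. In NA238, rpl-11.2 was at 770, 912 and 984 normalized CPM against 504, 520 and 536 in wild-type worms of batch 3, and rpl-25.1 at 296, 349 and 351 against 185, 191 and 196, without overlap in either, while rpl-11.1 (-0.34, adjusted p = 0.20) and rpl-25.2 (-0.20, adjusted p = 0.36) were not called. In nuo-6 the autosomal genes were called lower and the X-linked ones were not (rpl-25.1 at 0.34, adjusted p = 0.089, and rpl-11.2 at -0.11, adjusted p = 0.57). Without wild-type 7, which had the highest rpl-25.1 of its group (503 normalized CPM), rpl-25.1 was 0.48 higher in nuo-6 (limma adjusted p = 0.0089). Without nuo-6 3, which had the highest rpl-25.1 of the nuo-6 libraries (573 normalized CPM), it was at 0.22 (adjusted p = 0.27). The share of rpl-25.1 in its pair was 32.2% to 45.9% with a median of 36.5% in nuo-6 and 21.6% to 34.5% with a median of 25.1% in wild-type worms of batch 2, with wild-type 7 as the one wild-type library inside the nuo-6 range. It was 24.3%, 28.2% and 30.2% in NA238 and 14.4%, 16.8% and 17% in wild-type worms of batch 3, and 28.3% to 36% in et15, both without overlap with wild-type worms. In et17 it was 24.5% to 30.2%, above wild-type worms of batch 1 (20.2% to 24%), and in the atfs-1 deletion 16.4% to 18.5%, below them. In hif-1 (21% to 29%) and in atfs-1 of batch 3 (15.9%, 16.8% and 17.6%) it overlapped wild-type worms. The share of rpl-11.1 in its pair was 68.5% to 72.3% in the deletion, above wild-type worms of batch 1 (60.8% to 67.4%). It was 45.4% to 59.2% in et15, below them, and 56.5% to 66.5% in et17, with overlap.

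Germ line and oocyte genes moved with these ratios, and molting, yolk and sperm genes did so less over all libraries. Over all 43 libraries the log2 ratio of rpl-11.1 to rpl-11.2 and the summed level of 16 genes of the mitotic and meiotic germ line had r = 0.90 (rho = 0.90), and that of rpl-25.1 to rpl-25.2 had r = -0.91 (rho = -0.92). Within the 12 wild-type libraries the values were r = 0.80 and r = -0.75, beside 0.89 and -0.83 with 18 oocyte and eggshell genes and -0.82 and 0.71 with the 17 molting genes. These points share batches and genotypes, and the values are descriptions. The summed germ line level was 1406 and 1442 normalized CPM in nuo-6;hif-1 against 2754 to 3637 in wild-type worms of batch 1, 1680 to 2069 in nuo-6 against 2362 to 3571 in batch 2, 1676 to 2614 in et15, and 2081 to 3245 in NA238 against 2767 to 3850 in batch 3, with none of the 16 genes at 0 in any group. In nuo-6;hif-1 the molting sum was 2781 and 3319 against 256 to 1006 normalized CPM in wild-type worms of batch 1, the oocyte sum 740 and 1371 against 4636 to 9668, and the sum of 6 yolk genes 2005 and 8199 against 27022 to 76683. X-linked genes in general were also higher in nuo-6;hif-1, with a median of 0.58, 51.2% called higher and 9.6% lower among 1865 genes. The part of germ line content or of developmental stage in the change of the pairs was not tested. In the other pairs, rpl-24.1 made up 93.8% to 97.7% of its sum and rpl-41.1 3.05% to 5.33% of its sum over all libraries.

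Across the 8 comparisons with wild-type worms there were 59 calls, spread over 39 members, and 42 members were never called. rpl-25.2 and rpl-42 were called in 4 comparisons and rpl-11.1 in 3, always lower. rps-24 was called lower in 2 and higher in 1. These counts share wild-type libraries within a batch. The share of members called in either direction was below that of all genes in each of the 8 comparisons. Of all genes 40.3% were called in nuo-6, 33.3% in et15, 31.8% in the deletion and 56% in nuo-6;hif-1. How many of all genes were called in as many comparisons was not counted.

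Factors that load or assemble ribosomes had larger median changes than the ribosomal proteins in nuo-6 worms. Of 25 initiation factors, which load the ribosome onto mRNA, 20 were called lower in nuo-6, where 18% of all genes were, with a median of -0.52, led by the eIF3 subunits eif-3.C (-0.86, adjusted p = 1.5e-07) and eif-3.H (-0.80, adjusted p = 3.0e-06). Of 17 genes of the nucleolus and of ribosome assembly, 14 were lower with a median of -0.60, led by rpoa-2, a subunit of RNA polymerase I (-1.16, adjusted p = 7.3e-10), and nol-6 (-1.12, adjusted p = 1.8e-09). In et15, 13 of the 25 initiation factors and 13 of the 17 assembly genes were lower, with medians of -0.35 and -0.50 and with 1 initiation factor higher, where 16.4% of all genes were lower. The summed germ line level was also lower without overlap in nuo-6 (1680 to 2069 against 2362 to 3571 normalized CPM), et15 and nuo-6;hif-1. The part of germ line content in the changes of these and the following lists was not tested.

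In nuo-6;hif-1 the lists parted from the ribosomal proteins, as 15 initiation factors and 12 assembly genes were lower (2 and 1 were higher), with medians of -0.37 and -0.53, where 26.2% of all genes were lower and the 81 ribosomal protein genes had a median of -0.02. ife-3, an eIF4E homolog (-1.67, adjusted p = 2.1e-06), and fib-1, the rRNA methylase fibrillarin (-1.30, adjusted p = 1.9e-05), were lowest among those called. In NA238 5 initiation factors and 6 assembly genes were lower, with medians of -0.21 and -0.39, where 6.03% of all genes were lower, and eif-3.I was the one initiation factor called higher (0.77, adjusted p = 5.6e-05). In et17 no initiation factor was lower and 1 was higher, and 6 assembly genes were lower, where 1.24% of all genes were. In the atfs-1 deletion of batch 1, 7 of each list were higher and none lower, where 18% of all genes were higher, and in hif-1 and in atfs-1 of batch 3 none was called.

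The shorter lists cover elongation factors, other ribosome components and TOR signaling genes. Of 8 elongation factors 3 were lower in nuo-6 (18% of all genes were), 2 in et15 (16.4%), 1 in NA238 (6.03%) and 1 in nuo-6;hif-1 (26.2%). In nuo-6;hif-1 2 were higher (29.8% of all genes were), and in the deletion 1 was (18%). iff-1, a germ line eIF5A homolog that was held in this list, was among them each time (-0.67 in nuo-6, adjusted p = 0.00054, and -1.52 in nuo-6;hif-1, adjusted p = 6.7e-06). Of 5 further ribosome components, rack-1, which sits on the small subunit, was lower in nuo-6 (-0.35, adjusted p = 0.019) and icd-2, of the nascent polypeptide-associated complex, in NA238 (-0.67, adjusted p = 0.0039), and icd-1 and icd-2 were lower in et15. Of 10 TOR pathway genes 1 rose and 1 fell in nuo-6, where 22.4% of all genes were called higher and 18% lower. The same counts were found in NA238, where 11.1% of all genes were higher and 6.03% lower. In the deletion 4 rose and 1 fell, with a median of 0.41, where 18% of all genes were called higher and 13.8% lower. In et15 1 rose and 3 fell, where 16.9% of all genes were higher and 16.4% lower. In et17 1 rose, where 2.85% of all genes were higher. In nuo-6;hif-1 2 rose and 2 fell, where 29.8% of all genes were higher and 26.2% lower. In all of these lists no gene was at 0 in any group.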

How the data were processed

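RNA was isolated from whole prefertile young adult worms, and 43 mRNA libraries of 8 genotypes were sequenced in 3 batches (single reads of 75 bases). Per the methods and the submitters' processing notes, the authors aligned reads with STAR 2.5.2b to WBcel235, counted unique reads per gene with the Ensembl annotation, and used edgeR 3.20.1. The strand setting of the counting is not given in the sources used here. The deposited files hold CPM for all genes and, for the genes that passed the authors' filter, a normalized signal that the authors also give as CPM. Whole reads were recovered from the CPM steps (100% of values within 0.01 of a whole number in all libraries), and 21466920 to 48493377 reads on genes per library set the counting error, which is small for all members but rpl-42 and rpl-37.

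Normalized CPM was tested on the log2(value + 0.5) scale with limma 3.58.1 (trend) in R 4.3.3, in 1 fit over the 11 groups of genotype and batch, with contrasts against wild-type worms of the same batch and Benjamini-Hochberg adjustment over 13837 genes at 0.05. A fold change on this scale understates the change of low genes. The study used an additive batch term, which is an alternative here, as are edgeR 4.0.16 and DESeq2 1.42.0 on the recovered reads, other pseudocounts (0.1 and 2), scalings and filters, a replicate block and leaving out each library. The test was tested on simulated data. Tables were made with Python 3.11.15.

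Among groups with 3 or more shared replicate labels, the correlations of same-labelled libraries were all positive in 2 cases. They were 0.446 to 0.693 between wild-type and atfs-1 of batch 3, where the fit with the replicate block also called 0 members. Between the atfs-1 deletion and et17 of batch 1 they were weaker, at 0.069 to 0.212. The paper states that at least 3 independent samples were collected per genotype, and does not say whether these were separate cultures. The p-values rest on the spread between libraries within groups, in 1 estimate per gene shared by all 11 groups. For the 2 libraries of nuo-6;hif-1 this is mostly the spread of other genotypes.

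The members and lists were chosen with earlier results of these data known. Named members were, per comparison with wild-type worms, up to 3 called members with the largest rise and up to 3 with the largest fall, pairs sharing a number, the 5 highest and 5 lowest in wild-type worms and the stalk genes. For the related lists the 2 called genes with the largest change were named. Other members and genes were named after their values were seen. Promoter motifs were not searched.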

Additional observations from a re-analysis of the deposited data

Results flagged for a closer look

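In 6 of 84 groups of 4 to 10 libraries that were examined for the named members, 1 library lay far from the others, and chance gives about 1 in 20. rpl-29 was at 594 normalized CPM in wild-type 6, against 460 to 497 in the other wild-type worms of batch 2, and rpl-11.1 at 608 in wild-type 7, against 924 to 985. rpl-24.2 was at 63.1 in nuo-6 2, against 36.8 to 44.1 in the other nuo-6 libraries. In nuo-6 3, rpl-25.1 was at 573 against 315 to 396, rpl-37 at 3.58 against 1.43 to 2.1, and rla-2 at 226 against 376 to 459 normalized CPM. The same library had 6.62% of its reads on the members and wild-type 7 had the highest molting sum of its group, and the part of either in these values was not tested.

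Effects that differed between genotypes by the test of the difference itself (limma, Benjamini-Hochberg adjusted p under 0.05) were those of NA238 and nuo-6 for rla-1 (0.91), rpl-11.2 (0.88), rpl-13 (0.68) and rpl-7 (-0.58), and those of nuo-6;hif-1 and nuo-6 for rpl-11.2 (0.92). Each compares groups sequenced in different batches.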

How the results depend on the processing

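Of 410 alternatives over 22 results for named members, 353 kept the call, 57 lost it and none reversed, and 8 of the 22 kept it in every alternative run. The number of members called moved more. The shares of all genes called under each alternative are not given here, so these counts do not set the members apart from other genes. Scaled by library size alone, it was 55 in nuo-6 (21 in the normalized table), 2 in the atfs-1 deletion (9), 4 in et15 (12), 0 in et17 (1), 24 in the difference of NA238 and nuo-6 (4) and 2 in that of nuo-6;hif-1 and nuo-6 (1), and the NA238 median was 0.14 (0.01). With no filter it was 9 in nuo-6, 2 in the deletion, 4 in et15, 0 in et17, 5 in NA238 against atfs-1 (8) and 2 in the difference of NA238 and nuo-6. With only the groups compared it was 13 in nuo-6, 25 in the deletion, 0 in et15, 0 in et17 and 23 in NA238 against atfs-1. With an additive batch term it was 1 in atfs-1 of batch 3 (0), 1 in the deletion, 37 in et15, 9 in et17, 13 in NA238 against atfs-1 and 2 in the difference of nuo-6;hif-1 and nuo-6, with medians of 0.075 in NA238 and 0.12 in atfs-1 (0.05). In edgeR it was 1 in the deletion, 3 in et15 and 0 in et17, with medians of 0.092 in the deletion (0.20) and -0.001 in atfs-1, and in DESeq2 14 in the deletion and 2 in et17, with a median of -0.057 in NA238. In et17 it was also 0 at a mean of at least 5 CPM and, in fits added after seeing the data, 0 without either set of atfs-1 libraries. Outside the first 5 Mb of chromosome I, also added after seeing the data, 6 members were called in NA238. Apart from fits that drop samples or genes, the cause was not tested.

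With the replicate block 7 members were called in nuo-6, 22 in the deletion, 4 in et15, 2 in et17, 14 in NA238 against atfs-1, 17 in nuo-6;hif-1 against hif-1 (3), 1 in et15 against et17 (0), 2 in the difference of NA238 and nuo-6 and 2 in that of nuo-6;hif-1 and nuo-6. In these comparisons the labels were not found to pair libraries. Correlations ran from -0.390 to 0.233 between wild-type and nuo-6, and between NA238 and atfs-1, which share the labels b, bl and r, they were 0.334, -0.342 and 0.736.

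When each library was left out in turn, the count was 7 to 24 in nuo-6 (medians -0.27 to -0.20), 4 to 8 in NA238 (-0.05 to 0.04), 0 to 0 in atfs-1 of batch 3 (0.01 to 0.08), 1 to 10 in the deletion (0.15 to 0.26), 2 to 38 in et15 (-0.37 to -0.19), 0 to 12 in et17 (-0.37 to -0.17), 0 to 0 in hif-1 (-0.31 to -0.19) and 4 to 5 in nuo-6;hif-1 (-0.11 to 0.08). It was 2 to 5 in NA238 against atfs-1, 2 to 3 in nuo-6;hif-1 against hif-1, 0 to 1 in et15 against et17, 1 to 4 in the difference of NA238 and nuo-6, 0 to 3 in that of nuo-6;hif-1 and nuo-6, and 0 to 0 in that of the atfs-1 comparisons. Without 1 of the 2 nuo-6;hif-1 libraries the other is assumed to vary like the other groups.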
